A study of Xenopus laevis with 27 samples.

Results

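The erythroid regulators gata1.L, gata1.S and nfe2.L and the anion exchanger slc4a1.L of the frog Xenopus laevis were taken by gene name, as 4 of 42903 genes in the deposited tables. They were selected because earlier results of these same libraries showed them differing between groups, so every value and difference of these 4 genes is given as a description, without a test. Frog red cells keep their nucleus in the circulation. gata1 encodes a zinc finger transcription factor that drives red cell and thrombocyte differentiation, and it also acts in mast cells and eosinophils of mammals. nfe2 encodes the large subunit of a transcription factor that, together with a small Maf protein, acts on globin genes, and that in mice is required for platelet formation. slc4a1 encodes band 3, the chloride and bicarbonate exchanger of the red cell membrane and an anchor for the membrane skeleton. Xenopus laevis is an allotetraploid, and most of its genes exist as an L and an S copy from its pair of subgenomes.

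The study sequenced RNA from adult frogs whose hindlimb had been amputated. There were 27 libraries, 3 for each of 9 groups: the blastema (the tissue that forms over the amputation surface), the stump next to it and the brain, each from animals with no device, with a silk device alone (the sham) or with a silk device carrying progesterone. The groups share the amputation, and the labels give neither age, sex, time of collection nor whether libraries of a group came from separate animals, so the errors measure the spread between these libraries, which may be technical. Libraries were prepared from total RNA after ribosomal depletion and read for 40 nt. Values are FPKM as deposited, fragments scaled to transcript length and to library size, so levels of different genes can be compared per length.

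Library depth, estimated from the steps in low values, ran from 177828 to 3443499 reads. The no-device stump libraries were the deepest, at 2004472 to 3443499 reads, and the device libraries of blastema and stump held 177828 to 1674943. Within a group, libraries 1 and 3 of progesterone blastema, of no-device stump and of no-device brain differed by about the sampling noise (0.308% to 0.469% of genes, against 1.51% or more in other pairs of a group) and were averaged into 1 sample, which leaves 24 samples and n = 2 in those groups. The library labelled brain silk 3 was just as close to the no-device brain libraries 1 and 3 (0.32% and 0.301%), although it carries another label, and it is kept in its labelled group. One other gene, smad4.1.S, took 0.053% to 39.9% of a library's reads, with 22.6% to 39.9% in silk blastema and at most 1.13% without a device. Among tissue markers, those of skeletal muscle summed to 32850 to 54200 FPKM in no-device stump and 28.5 to 249 FPKM in brain, and those of neurons and glia to 2786 to 5303 FPKM in brain and 17.8 to 376.7 FPKM in limb libraries. Blastema and limb mesenchyme markers summed to 264.7 to 5674 FPKM in blastema and 908.3 to 5295 FPKM in stump, so they did not separate these 2 tissues, and to 74.2 to 170.1 FPKM in brain.

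Across the 9 groups the 4 genes divided the libraries in a broadly similar way. They were high in all 3 blastema groups and in both device stump groups, low in the no-device stump, and lowest in the brain. The upper groups were not ordered alike. nfe2.L was lower in no-device blastema (8.39 to 14.69 FPKM) than in silk stump (17.9 to 37.62 FPKM), while the other members overlapped there. slc4a1.L and gata1.S were the most abundant members, gata1.L and nfe2.L the less abundant ones, and for each of the 4 the no-device stump ranked sixth of 9, clear of the groups above and below it. Over all 42903 genes, 9.49% had every device stump library above every no-device one. The share of genes with the whole order was not computed. The members were chosen on such values, so nothing is read from this separation.

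**Figure D1:**
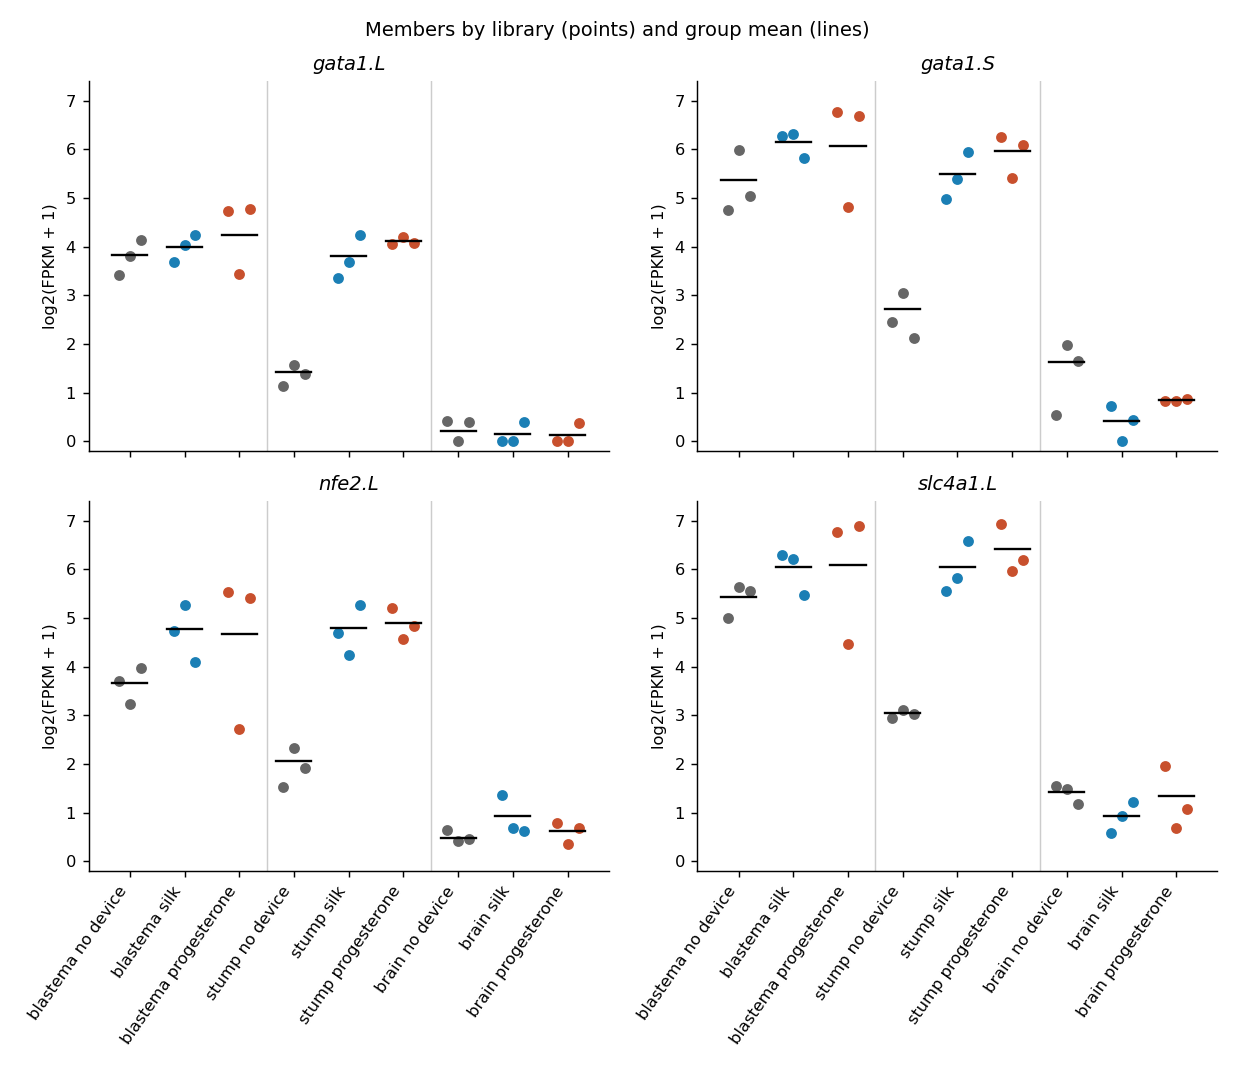
Level of each gene, as log2(FPKM + 1), in each of the 27 libraries (points, coloured grey for no device, blue for silk and orange for progesterone) and the log of the group's mean FPKM (lines, near-identical libraries averaged first). For all 4 genes the no-device stump libraries lie below every device stump library, as for 9.49% of all 42903 genes, and the brain libraries lie at the bottom.

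slc4a1.L, the anion exchanger, had 30.84, 48.89 and 46.03 FPKM in blastema libraries 1, 2 and 3 without a device, 77.47, 73.28 and 43.64 with silk, and 107.57, 21.11 and 117.64 with progesterone. In the stump it had 6.67, 7.65 and 7.18 FPKM without a device, 45.87, 55.85 and 94.89 with silk, and 121.02, 61.49 and 72.31 with progesterone. In the brain it had 1.93, 1.79 and 1.28 FPKM without a device, 0.5, 0.91 and 1.34 with silk, and 2.89, 0.61 and 1.12 with progesterone. The stump libraries without a device thus formed a tight low set, every device stump library lay above all of them, and the blastema groups overlapped one another. The mean was 7.29 ± 0.513 FPKM (SD, n = 2) in no-device stump, 65.5 ± 25.9 (n = 3) with silk and 84.9 ± 31.7 (n = 3) with progesterone, ratios of 8.99 and 11.7 to the no-device mean. In the order of the 9 means the 5 upper groups, from progesterone stump down to no-device blastema, each overlapped the next, and the 3 brain groups overlapped one another as well.

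gata1.S, the more abundant copy of the transcription factor, had 26.05, 62.09 and 31.83 FPKM in no-device blastema, 76.19, 78 and 55.64 with silk, and 108.36, 27.1 and 101.87 with progesterone. In the stump it had 4.43, 7.23 and 3.33 FPKM without a device, 30.4, 40.94 and 60.24 with silk, and 74.94, 41.26 and 67.39 with progesterone. In the brain it had 0.45, 2.91 and 2.14 FPKM without a device, 0.65, 0 and 0.35 with silk, and 0.77, 0.77 and 0.83 with progesterone. The lowest device stump library was thus above the highest no-device stump library. Stump means were 5.56 ± 2.37 FPKM (SD, n = 2), 43.9 ± 15.1 (n = 3) and 61.2 ± 17.7 (n = 3), ratios of 7.90 and 11.02 to no device.

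gata1.L was lower than gata1.S in every limb library. Pearson's r of log2(FPKM + 1) between these copies was 0.929 over the 16 limb samples, but 0.654 over the 8 blastema samples. gata1.L had 9.73, 12.98 and 16.57 FPKM in no-device blastema, 11.75, 15.31 and 17.91 with silk, and 25.56, 9.76 and 26.22 with progesterone. In the stump it had 1.18, 1.94 and 1.6 FPKM without a device, 9.2, 11.79 and 17.93 with silk, and 15.55, 17.21 and 15.87 with progesterone. In the stump the no-device libraries overlapped neither device group, while silk and progesterone overlapped each other. In the blastema all groups overlapped. Stump means were 1.67 ± 0.389 FPKM (SD, n = 2), 12.97 ± 4.48 (n = 3) and 16.2 ± 0.881 (n = 3), ratios of 7.79 and 9.74. In the brain gata1.L was listed at 0 in 5 of 9 libraries and reached at most 0.33 FPKM, about 1 read, where 3 reads would be 0.814 to 2.65 FPKM, so it was not detectable there at this depth. The values in limb libraries also rest on few reads, an estimated 3.1 to 51.0 per library.

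nfe2.L had 11.98, 8.39 and 14.69 FPKM in no-device blastema, 25.49, 37.64 and 16.22 with silk, and 45.11, 5.64 and 41.3 with progesterone. In the stump it had 1.9, 4.03 and 2.77 FPKM without a device, 24.98, 17.9 and 37.62 with silk, and 35.76, 22.82 and 27.72 with progesterone. In the brain it ranged from 0.29 to 1.56 FPKM, an estimated 1.6 to 5.3 reads. nfe2.L was the member whose silk and no-device libraries did not overlap in the blastema either. Stump means were 3.18 ± 1.20 FPKM (SD, n = 2), 26.8 ± 9.99 (n = 3) and 28.8 ± 6.53 (n = 3), ratios of 8.43 and 9.04.

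The device comparison asks how the silk device, with or without progesterone, goes along with expression at the amputation site. On the log2(FPKM + 1) scale, which understates changes of low genes, silk stump exceeded no-device stump by 2.35 ± 0.53 (SE) for gata1.L, 2.77 ± 0.58 for gata1.S, 2.70 ± 0.56 for nfe2.L and 2.94 ± 0.58 for slc4a1.L. Progesterone stump exceeded it by 2.70 ± 0.53, 3.25 ± 0.58, 2.84 ± 0.56 and 3.31 ± 0.58 in the same order. Both comparisons use the same no-device libraries. The median difference over all 29972 genes tested in the stump was itself above 0, at 0.52 for silk and 0.57 for progesterone, so the members stood 1.84 to 2.42 and 2.13 to 2.75 above it. Of all genes, 3.95%, 2.27%, 2.48% and 1.80% had a larger silk difference than gata1.L, gata1.S, nfe2.L and slc4a1.L, and 1.45%, 0.57%, 1.12% and 0.51% a larger progesterone difference. All 4 members had non-overlapping stump samples, higher with a device. Over all genes 23.5% did so for silk and 30.8% for progesterone, and since the members were chosen on such values nothing is read from that contrast. In such bulk samples more cells of a type and more RNA per cell cannot be told apart. With median-of-ratios scaling in place of FPKM as deposited, which brings the median over all genes to 0.06 and 0.08, the 4 members still differed by 1.89 to 2.34 with silk and by 2.08 to 2.55 with progesterone. The authors' deposited table, made with their own scaling, gives log2 fold changes of 2.18, 2.44, 2.25 and 2.30 for silk and 2.55, 2.76, 2.30 and 2.59 for progesterone, for gata1.L, gata1.S, nfe2.L and slc4a1.L.

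Progesterone stump and silk stump lay close together. The progesterone minus silk difference was 0.35 ± 0.47 for gata1.L, 0.48 ± 0.52 for gata1.S, 0.14 ± 0.50 for nfe2.L and 0.38 ± 0.52 for slc4a1.L. Each is smaller than its own SE, the samples overlapped for all 4 genes, and the sign for nfe2.L changed when silk library 2 (−0.11) or progesterone library 1 (−0.03) was left out, when smad4.1.S was left out and FPKM rescaled (−0.05), and with median-of-ratios scaling (−0.02).

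In the blastema the device differences were less than 1.5 times their SE. Silk minus no device was 0.19 ± 0.59 for gata1.L, 0.87 ± 0.67 for gata1.S, 1.07 ± 0.75 for nfe2.L and 0.60 ± 0.70 for slc4a1.L, where the median over all 37273 genes was −0.36. A larger silk difference was held by 23.86%, 6.73%, 4.73% and 11.17% of all genes in the same order. Leaving out smad4.1.S, which took 22.6% to 39.9% of silk blastema reads, and rescaling FPKM gave 0.76, 1.46, 1.64 and 1.19 in the same order, beside a median of 0.00 over all genes, and median-of-ratios scaling gave 0.51, 1.21, 1.39 and 0.93. For nfe2.L the samples did not overlap, as for 2.68% of all genes in that direction, and the other 3 members overlapped. Progesterone minus no device was 0.30 ± 0.66, 0.51 ± 0.75, 0.47 ± 0.84 and 0.25 ± 0.78 in the same order. That result depends on progesterone library 2, the shallowest of all at 177828 reads and the lowest in the group for each member. Without it the differences were 0.96, 1.47, 1.83 and 1.43, and with it alone against the no-device libraries they were −0.36, −0.45, −0.90 and −0.93. Progesterone minus silk in the blastema likewise took either sign, from −0.55 to 0.77 for gata1.L and from −1.97 to 0.76 for nfe2.L, according to which progesterone sample was left out. Whether the device difference in the stump is larger than that in the blastema was not tested, since the members were chosen on these values.

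**Figure D2:**
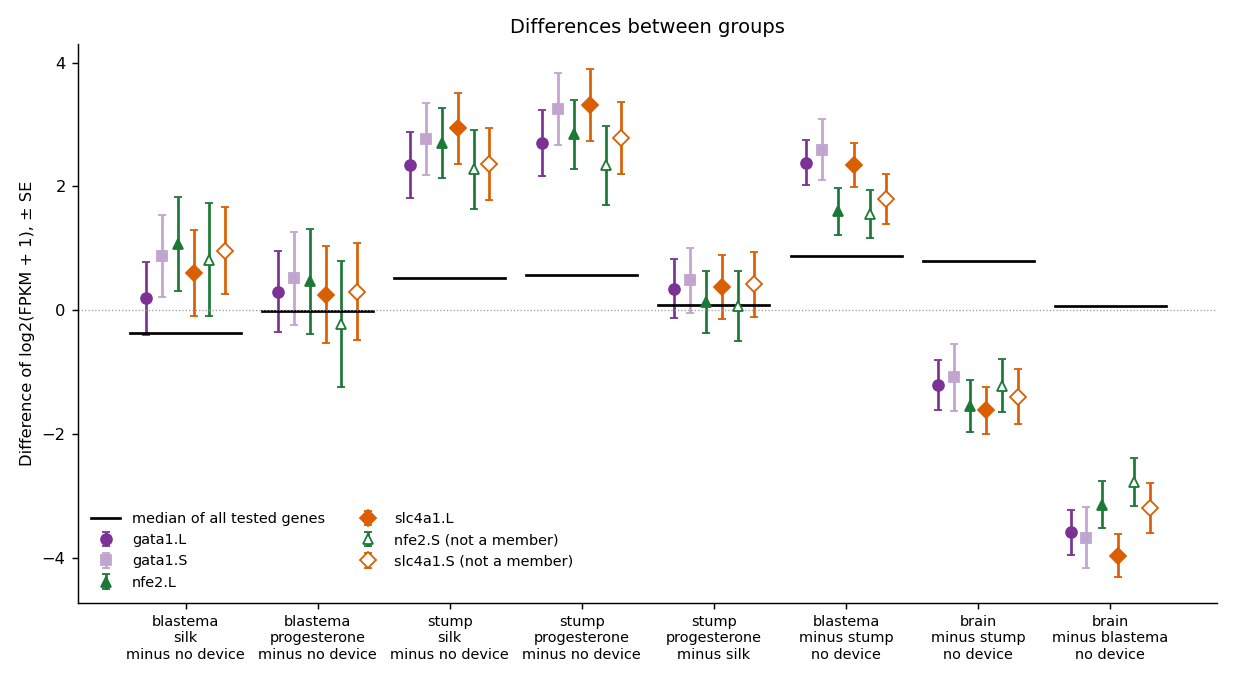
Difference of log2(FPKM + 1) between groups, with its SE from the fit, for the 4 members (filled) and for the other copies nfe2.S and slc4a1.S (open), and the median over all tested genes (black lines). The members exceed the median most in the stump device comparisons and fall below it in both brain comparisons.

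Without a device, the tissues ranked blastema, stump, brain for all 4 genes. Blastema minus stump was 2.38 ± 0.37 for gata1.L, 2.59 ± 0.49 for gata1.S, 1.60 ± 0.38 for nfe2.L and 2.35 ± 0.35 for slc4a1.L, beside a median of 0.87 over 31201 genes. All 4 had higher blastema samples with no overlap, as had 49.1% of all genes. With median-of-ratios scaling, under which the median over all genes was 0.17, these differences were 1.56, 1.61, 0.69 and 1.33. Brain minus stump was −1.21 ± 0.40, −1.08 ± 0.54, −1.55 ± 0.41 and −1.62 ± 0.38, where the median over all genes was 0.80. Brain minus blastema was −3.59 ± 0.37, −3.68 ± 0.49, −3.14 ± 0.38 and −3.97 ± 0.35, with a median of 0.06. The brain samples were lower with no overlap for all 4, against 14.5% of genes below the stump and 29.7% below the blastema. Since brain values are at a few reads, these brain differences move with the value added before taking logs, for gata1.L from −3.09 with 0.1 to −0.37 with 5 against the stump. Among the treatments of the brain, slc4a1.L was the member that passed the filter on low values there, with silk minus no device at −0.52 ± 0.38, progesterone minus no device at −0.19 ± 0.38 and progesterone minus silk at 0.33 ± 0.34. Without the library labelled brain silk 3 the silk difference was −0.67. Progesterone minus silk changed sign without progesterone library 1 (−0.03), and progesterone minus no device without progesterone library 2 (0.09).

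The other copies of nfe2 and slc4a1 are not among the 4 genes, and their tests are given. Reads that fit both copies may be shared with the members, so these tests are not independent of how the members were chosen. nfe2.S had 2.67, 4.91 and 2.52 FPKM in no-device stump, 26.33, 12.13 and 29.85 with silk, and 32.95, 25.77 and 12.98 with progesterone. Its differences of 2.27 ± 0.64 and 2.34 ± 0.64 had adjusted p of 0.191 and 0.309 (limma, Benjamini-Hochberg over all genes), so it did not pass. All 6 device libraries lay above all 3 no-device libraries, as for 9.49% of all 42903 genes. That share includes genes below the filter on low values, and it was not computed among the 29972 tested genes, where it may be higher. The authors' deposited table gives nfe2.S q-values of 0.00131 and 0.00111, in comparisons where that table has q under 0.05 for 26.5% and 15.3% of its genes. The S copy of slc4a1 carries a locus number in the tables (LOC108702537) and was matched by gene ID to slc4a1.S in RefSeq. It averaged 3.97 ± 1.33 FPKM (SD, n = 2) in no-device stump, 25.4 FPKM (18.36 to 38.04, n = 3) with silk and 33.9 ± 12.1 (n = 3) with progesterone. The differences were 2.36 ± 0.59 (limma adjusted p = 0.171) and 2.78 ± 0.59 (limma adjusted p = 0.189). All device libraries of slc4a1.S lay above its no-device libraries, again as for 9.49% of all 42903 genes. Between no-device tissues slc4a1.S passed in all 3 comparisons and nfe2.S in 2 of 3. Of all genes, limma called 28.8% higher in blastema than stump. It called 4.98% lower in brain than stump and 18.9% lower in brain than blastema. Brain minus stump was −1.22 ± 0.43 for nfe2.S (limma adjusted p = 0.06), which did not pass, and −1.40 ± 0.45 for slc4a1.S (limma adjusted p = 0.0437). nfe2.S was lower in brain than blastema by −2.78 ± 0.39 (limma adjusted p = 0.0021), and slc4a1.S by −3.19 ± 0.41 (limma adjusted p = 0.00157). Blastema exceeded stump by 1.55 ± 0.39 for nfe2.S (limma adjusted p = 0.0234) and by 1.80 ± 0.41 for slc4a1.S (limma adjusted p = 0.0175), but with median-of-ratios scaling these were 0.63 (limma adjusted p = 0.195) and 0.85 (limma adjusted p = 0.127). Over the other settings the adjusted p ran from 0.00201 to 0.04 for nfe2.S and from 0.000811 to 0.0311 for slc4a1.S.

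The L copy gave 13.4% to 34.2% of gata1 FPKM per limb library, 35.8% to 76.0% of nfe2 and 60.5% to 73.9% of slc4a1, with overlapping ranges between device and no-device stump for gata1 and nfe2. For slc4a1 the L share was 60.9% to 69.7% in no-device stump, 71.4% to 73.8% with silk and 69.7% to 72.6% with progesterone, so silk and no-device stump did not overlap. The gap was narrow and the no-device stump holds 2 samples after averaging. How many of all L and S pairs separate in this way was not computed, so nothing is read from it. gata1 was thus mostly read from the S copy, slc4a1 mostly from the L copy, and nfe2 about evenly. Reads of 40 nt that fit both copies cannot be assigned with certainty, so the levels of L and S copies are uncertain to that extent.

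**Figure D3:**
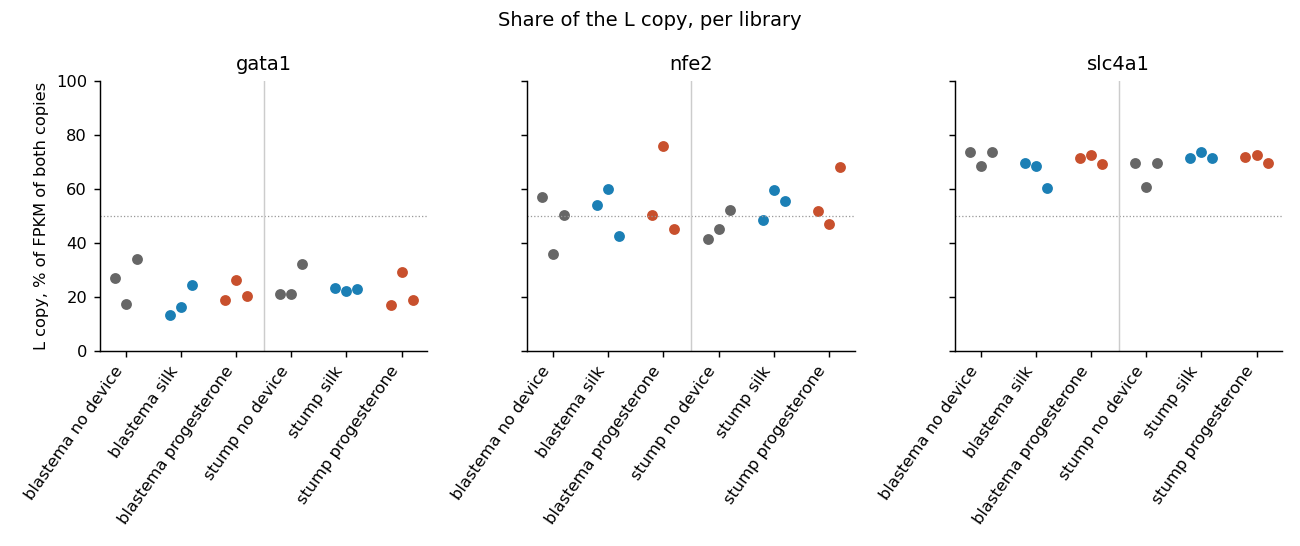
Share of the L copy in the summed FPKM of both copies, in percent, for each limb library (points, coloured by treatment), with the dotted line at 50%. The shares lie below the line for gata1, above it for slc4a1 and around it for nfe2.

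Among 18 other gene copies of the same families, gata2 to gata6, nfe2l1 to nfe2l3, slc4a2 and slc4a3, 5 had all device stump libraries above all no-device ones. So had 9.49% of all 42903 genes, those below the filter on low values included, a description without a test. gata2.L, an earlier blood progenitor factor that GATA1 replaces during red cell maturation in mammals, ranged from 0.53 to 0.97 FPKM in no-device stump, from 2.3 to 4.33 with silk and from 1.07 to 4.39 with progesterone. gata2.S went from 0.37 to 0.7 FPKM to 2.55 to 4.81 and 2.07 to 2.97. These values are low, where 1 read in 1 kb was 0.597 to 3.33 FPKM in device stump libraries. Unlike the members, both gata2 copies reached similar levels in the brain, at 2.55 to 4.87 FPKM for gata2.L and 1.06 to 2.72 for gata2.S. The others were nfe2l1.L, nfe2l1.S and nfe2l2.L, broadly expressed stress-response relatives of nfe2, and unlike nfe2 they were also expressed in the brain, where nfe2l2.L ranged from 13.5 to 31.9 FPKM. The remaining gata copies stayed at or below 17.4 FPKM in every limb library, and slc4a2.S and slc4a3.L at or below 4.76 FPKM.

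The wider red cell programme was followed with 7 gene lists holding 112 other gene copies, 110 of which passed the filter on low values in blastema and stump and 95 in the brain. In the stump most of these copies lay higher with a device, but none passed the test. Positive differences were found for 88 of 110 with silk and for 97 of 110 with progesterone, with medians of 0.91 and 1.27 beside 0.52 and 0.57 over all genes. Medians above 0 mean that most of all genes were positive as well. Their exact share was not computed, here or beside the single lists below. With median-of-ratios scaling 70 and 86 of 110 were positive, beside medians of 0.06 and 0.08 over all genes. limma called 0 of 110 in either comparison, as it called 0% of all genes. At an unadjusted p under 0.05 there were 43 and 50 of 110 list copies, among 3892 and 2953 of 29972 genes. limma-voom on estimated reads called 49 and 36 of the 110, 47 and 35 of them higher. Over all genes it called 7515 and 1384, 7033 and 1158 of them higher. Its median difference over all genes was 1.26 and 1.14, above the 0.52 and 0.57 of the main fit. Non-overlapping and higher were 52 of 110 with silk and 70 of 110 with progesterone, to be read against the 23.5% and 30.8% of all genes given above.

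The silk difference in the stump had a median of 0.52 over all genes, and 23.5% of genes were higher without overlap. The counts of the single lists are to be read against that shift. With no calls in these device comparisons, the list copies named below were taken by abundance or by calls between no-device tissues. Calls against the stump share its no-device samples with the device comparisons, so the differences of such copies are partly given by that choice. Among the 21 other copies of erythroid transcription factors, 18 had positive silk differences and 15 did not overlap, all of these higher. The most abundant of these were ldb1.L and ldb1.S, bridging subunits of the GATA1 complex, at 1.59 ± 0.56 and 1.46 ± 0.69. Its DNA-binding partner tal1.S went from 2.27 FPKM without a device to 14.5 with silk (2.14 ± 0.62, limma adjusted p = 0.196) and 21.1 with progesterone (2.78 ± 0.62, limma adjusted p = 0.22). Erythropoietin and kit signalling had 12 of 14 positive copies. cish.L, a feedback inhibitor of cytokine signalling, averaged 12.3 FPKM without a device and 40.3 with silk. epor.L, the erythropoietin receptor, averaged 3.72 FPKM without a device, 36.9 with silk and 54.2 with progesterone (2.81 ± 0.65 and 3.53 ± 0.65, limma adjusted p = 0.161 and 0.167).

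All 7 globin copies had positive silk differences, with a median of 2.91. hbg1.L had 1542 to 2438 FPKM in no-device stump samples, 10810 to 35230 with silk and 14030 to 40020 with progesterone, and hba1.L had 1580 to 2345, 9009 to 27520 and 11890 to 38780. Heme synthesis and transport had 18 of 23 positive copies, led by gene models named alas2.S, the erythroid first enzyme of the pathway. The most abundant of its 3 models went from 34.5 to 209 FPKM with silk (2.61 ± 0.64) and 299 with progesterone (3.13 ± 0.64). Reads shared among these models cannot be separated.

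Iron genes had differences of either sign, none of which passed. The storage subunit fth1.S averaged 632.1 FPKM without a device and 3332 with silk (2.43 ± 0.60, limma adjusted p = 0.17), and the receptor tfr2.L 11.8 and 74.8 (2.53 ± 0.65, limma adjusted p = 0.175). The iron exporter slc40a1.S averaged 39.96 FPKM without a device and 8.67 with silk (−2.08 ± 0.53, limma adjusted p = 0.175), and the uptake receptors tfrc.L and tfrc.S differed by −1.48 ± 0.83 and −1.62 ± 0.83. The list median was 0.16 with silk, below the 0.52 of all genes, and 0.72 with progesterone, above the 0.57 of all genes. Of the red cell membrane, 15 of 17 copies were positive: the skeleton proteins dmtn.L (2.77 ± 0.54), add2.S (2.59 ± 0.54) and add2.L (2.64 ± 0.59) were near the size of slc4a1.L, while the abundant aqp1.L (0.29 ± 0.75), a water channel, and ank1.L (0.41 ± 0.56), which links band 3 to spectrin, were below the median of all genes. epb42.L (LOC108701050 in the tables), which encodes protein 4.2, a band 3 partner, differed by 2.58 ± 0.58 (limma adjusted p = 0.156) with silk and 3.09 ± 0.58 (limma adjusted p = 0.168) with progesterone. The red cell enzyme bpgm.L, which makes the haemoglobin effector bisphosphoglycerate in mammals, went from 23.4 to 146 FPKM with silk (2.72 ± 0.66), while nt5c3a.L, a pyrimidine nucleotidase, went from 19.4 to 3.81 (−2.53 ± 0.83).

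**Figure D4:**
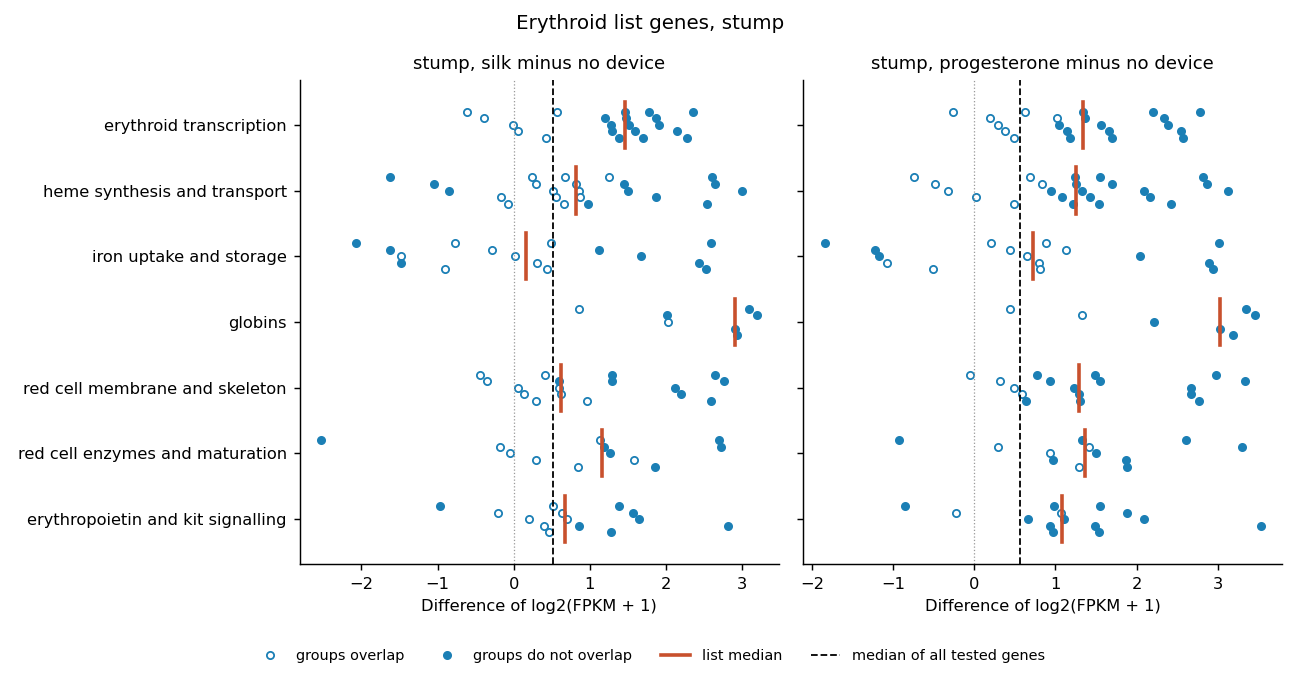
Difference of log2(FPKM + 1) of each gene copy of the 7 erythroid lists (the 4 members left out) for silk and for progesterone against no device in the stump, filled where the samples of the groups do not overlap, with the list's median (orange) and the median of all tested genes (dashed). The globin median is the highest, near 3, and the iron list spans both sides of 0.

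In the blastema 0 of 110 list copies passed limma for silk against no device (0% of all genes), with 7 at an unadjusted p under 0.05 (2859 of 37273 genes) and 0 by limma-voom. Without overlap, 16 of 110 list copies were higher with silk, beside 2.68% of all genes, and 7 lower, beside 4524 of 37273 genes. With progesterone these counts were 8 and 10, beside 2471 and 4170 of 37273 genes. Positive silk differences were found for 59 of 110, for 75 of 109 with median-of-ratios scaling and for 81 of 110 with smad4.1.S left out. The list medians were 0.06, 0.35 and 0.56, beside −0.36, −0.14 and 0.00 over all genes. The share of all genes with a positive difference was not computed. Progesterone against no device gave 0 of 110, with 3 at an unadjusted p under 0.05 (1378 of 37273 genes) and 0 by limma-voom. Progesterone against silk gave 0 of 110, with 5 (2102 of 37273 genes) and 0. In the brain the 3 treatment comparisons each called 0 of 95 list copies, with 5, 3 and 9 at an unadjusted p under 0.05 (1278, 789 and 2154 of 27157 genes), and limma-voom called 0, 0 and 1. Over all genes progesterone against silk called 0.0221% in the brain and the other treatment comparisons 0%.

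Between tissues without a device the lists did give calls. From stump to blastema 33 of 104 copies were higher and 4 lower at limma adjusted p under 0.05, beside 28.8% and 2.35% of all genes, so the share of higher calls was close to that of all genes. With median-of-ratios scaling the split was 7 higher and 9 lower of 105, beside 13.9% and 8.86% of all genes, so the share of higher calls was then below that of all genes. The copies with the smallest p included dmtn.L (3.01 ± 0.36, limma adjusted p = 0.00298), epor.L (3.32 ± 0.42, limma adjusted p = 0.00358), add2.S (2.55 ± 0.40), cbfa2t3.L, a corepressor of the TAL1 complex (2.85 ± 0.47), tal1.S (2.06 ± 0.42) and bpgm.L (2.25 ± 0.50). slc40a1.S, tfrc.L and nt5c3a.L were called lower, by −1.56, −1.40 and −1.10. The call count rested on few stump samples: leaving out stump library 2 left 5 calls, leaving out the averaged libraries 1 and 3 left 2, and leaving out blastema library 3 left 15. Of 5 globin copies tested 1 was called, and hba1.L (0.68 ± 0.58) and hbg1.L (1.19 ± 0.50) did not pass.

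From stump to brain 18 copies were called higher and 18 lower, against 29% and 4.98% of all genes, or 9 and 34 of 105 with median-of-ratios scaling, against 16.3% and 12.6%. The lower ones included sptb.L, a beta spectrin of the red cell membrane list, at 22.9 FPKM in stump and 0.585 in brain (−3.92 ± 0.44, limma adjusted p = 0.000651), and hbg1.L (−1.95 ± 0.55). The no-device stump was rich in muscle markers, and the cell source of sptb.L there was not tested. The higher ones included add2.L (4.72 ± 0.44) and tf.S, transferrin (6.24 ± 1.45). From blastema to brain 6 were higher and 37 lower, against 19% and 18.9% of all genes. epor.L (−4.58 ± 0.42), sptb.L (−4.45 ± 0.40), alas2.S (−4.85 ± 0.54), tfr2.L (−3.66 ± 0.65), hbg1.L (−3.14 ± 0.50) and runx1.L (−2.90 ± 0.35) were all lower in brain. Leaving out brain library 2 left 16 calls against the stump and 19 against the blastema, leaving out the averaged brain libraries left 18 and 16, and leaving out the averaged stump libraries left 15 against the stump.

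Set against the globins of the same library, the members were less divided by device in the stump, and differed from one another in the blastema. slc4a1.L per 1000 globin FPKM was 1.46 to 2.04 in no-device stump, 1.38 to 2.498 with silk and 1.34 to 2.52 with progesterone, groups that overlap although the FPKM of slc4a1.L do not. gata1.S gave 0.944 to 1.38, 0.876 to 1.83 and 0.832 to 2.35 in the same groups, and nfe2.L 0.541 to 0.785, 0.547 to 0.915 and 0.397 to 0.967. In the blastema the silk ratios lay below the no-device ratios without overlap for slc4a1.L and gata1.L, although the FPKM of these genes overlapped. How many of all genes separate in this way was not computed, so nothing is read from it. The ratios overlapped for gata1.S (2.29 to 6.75 without a device, 1.53 to 3.60 with silk) and nfe2.L (0.913 to 2.95 and 0.611 to 1.05), although the FPKM of nfe2.L did not. slc4a1.L per 1000 globin FPKM was 3.31 to 7.58 there and 1.44 to 2.83 with silk, and 7.09 in progesterone library 2 beside 1.83 and 1.89 in the other 2 progesterone libraries. Globin FPKM summed to 4068 to 13900 in no-device blastema, 15450 to 50860 with silk, and 2977 in progesterone library 2 against 58640 and 62160 in libraries 1 and 3. The sum of both gata1 copies per slc4a1.L was 0.687 to 1.20 in no-device stump and 0.748 to 1.15 in its device groups, and 1.05 to 1.75 over the blastema libraries.

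**Figure D5:**
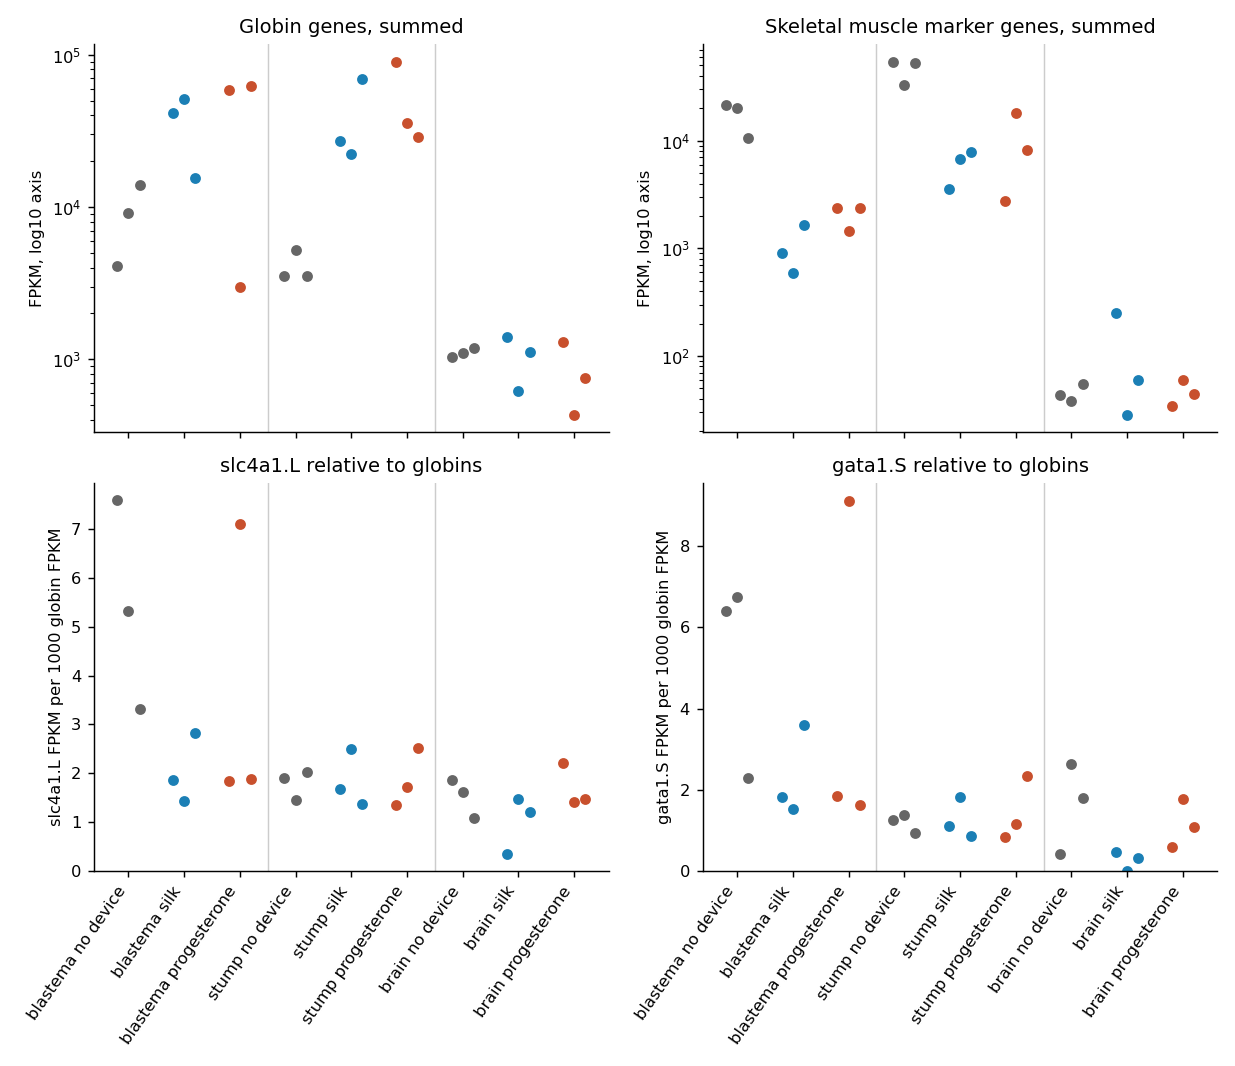
Summed FPKM of the globin genes and of the skeletal muscle markers (upper panels, log10 axes), and slc4a1.L and gata1.S FPKM per 1000 globin FPKM (lower panels), for each library, coloured by treatment. In the stump the globin sum is higher and the muscle sum lower with a device, while the ratios to globins overlap.

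Several measures moved with the stump device groups beside the members, and their part in the result was not tested. All 12 tested muscle marker copies (9 of 11 symbols found) had negative silk differences. Their sum was 32850 to 54200 FPKM without a device, 3529 to 7893 with silk and 2729 to 18260 with progesterone. In the blastema it was 10490 to 21290 FPKM without a device, 584.8 to 1653 with silk and 1452 to 2393 with progesterone. Neuron and glia markers were higher in device stump: 11 of 11 tested copies had positive silk differences, with a median of 2.04 and 10 not overlapping, and 11 of 11 had positive progesterone differences, with a median of 1.53 and 8 not overlapping. Over all genes the medians were 0.52 and 0.57, and 23.5% and 30.8% were higher without overlap. The neuron and glia sum was 17.8 to 20.9 FPKM without a device, 100.3 to 158 with silk and 70.5 to 162.2 with progesterone. The globin sum was 3515 to 5250 FPKM without a device, 22360 to 68780 with silk and 28660 to 90060 with progesterone. smad4.1.S took 0.092% to 0.132% of reads in no-device stump, 0.734% to 31.6% with silk and 0.987% to 16.3% with progesterone, and leaving it out and rescaling gave 3.23 for slc4a1.L with silk, against 2.94.

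gata1 and nfe2 are also expressed in thrombocytes. Of 15 thrombocyte marker symbols 8 were found, as 12 copies, and their sum was 31.4 to 44.6 FPKM in no-device stump, 70.1 to 97.4 with silk and 87.3 to 115 with progesterone. Among them gp1bb.L, a subunit of the von Willebrand factor receptor, differed by 2.67 ± 0.58 with silk (limma adjusted p = 0.151), gp1bb.S by 1.89 ± 0.59 and vwf.L by −0.31 ± 0.54. 7 symbols, the defining itga2b, gp9, gp1ba, pf4, treml1 and tubb1 among them, were not matched by name. Of 8 mast cell and eosinophil symbols 2 were found, and their sum overlapped between stump groups, at 14.2 to 66.1 FPKM without a device and 8.04 to 104 with silk. Endothelial markers (11 of 13 symbols) summed to 88.6 to 105 FPKM without a device, 123 to 234 with silk and 248 to 269 with progesterone. Myeloid leukocyte markers (15 of 17 symbols) gave 167 to 327.8, 193.5 to 894 and 420.6 to 805 FPKM, and lymphocyte markers (10 of 12 symbols) 4.68 to 11.85, 18.97 to 66.84 and 29.36 to 57.23 FPKM. The part of these cell types in the members' values was not tested.

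The members were chosen as differing between these groups, so high correlations among them are partly given by that choice and are a description. The contrast of limb and brain enters too. The muscle marker sum correlated with the members at 0.669 to 0.713 over all 24 samples, but at −0.662 to −0.545 over the limb samples. Over the 24 samples, which share libraries and a common scaling, Pearson's r of log2(FPKM + 1) between members was 0.954 to 0.982, and over the 16 limb samples 0.827 to 0.949, with the highest value between gata1.S and slc4a1.L in both. nfe2.L had the higher correlation with the globin sum over limb samples, at 0.925, against 0.671 for gata1.L. Of 42326 genes, the one most like the mean of the 4 was slc4a1.S (LOC108702537), at r = 0.991 over 24 samples. It was followed by LOC108704227 (0.988), synm.S (0.984, an intermediate filament gene), misp.L (0.982), susd1.L (0.982), a gene model with no name of its own, MGC69074 (0.980), LOC108719383 (0.980), akr1c4.S (0.979) and LOC108712511 (0.979). For single members the nearest were akr1c4.S, traf3ip3.S, MGC69074, synm.S and slc4a1.L for gata1.L (0.978 to 0.984), and LOC108704227, slc4a1.S, slc4a1.L, misp.L and LOC108699426 for gata1.S (0.978 to 0.985). nfe2.L had slc4a1.S, the globin hbg1.L, slc4a1.L, the unnamed model and misp.L (0.970 to 0.980), and slc4a1.L had LOC108704227, slc4a1.S, gata1.S, epb42.L and gata1.L (0.978 to 0.986). With each library taken separately 9 of the 10 genes nearest the mean were shared, over limb samples alone 5 of 10, and over the 8 blastema samples alone, a choice added after seeing the data, 2 of 10. Between members r over those 8 samples was 0.654 to 0.913.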

How the data were processed

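The authors deposited one table per pair of groups with FPKM per library, group means (a normalized signal, average CPM), log2 fold changes, and p-values and q-values. Per the submitters' processing notes, FastQC, Trimmomatic, STAR, RSEM and edgeR were used; the sources used here give no versions, build, annotation or strand. The unit FPKM was inferred from the values. Values times an estimated gene length (from the deposited group means) summed to nearly the same total in each library. The lengths were scaled so that the median total equalled the one FPKM would give. Only the spread between libraries, 98.6% to 102% of that total, therefore bears on the unit. Only 64.8% to 72.4% of low values lay within 0.1 of a whole read, so deposited values were not treated as counts, and limma-voom on estimated reads served as an alternative. Here log2(FPKM + 1) was fitted with limma 3.58.1 (R 4.3.3) on genes reaching 1 FPKM in 3 or more samples of the fit, one fit per tissue and one across no-device tissues, with Benjamini-Hochberg adjustment at 0.05; the scripts were tested on simulated data. Libraries of one group with under 1% of genes differing were averaged; the brain silk library close to another group was kept. Genes were named by a fixed rule: members in every library, list genes called (at most 5 per list and comparison), the 3 most abundant per list, family copies, and the genes most like the members. gp1bb, vwf.L and smad4.1.S were named after their values were seen. The 4 genes, the lists and the tests were chosen with earlier results of these data known. Sequences were not analysed here, and gene symbols of locus numbers come from RefSeq by gene ID.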

Additional observations from a re-analysis of the deposited data

How the results depend on the processing

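Over the 12 comparisons, the number of erythroid list copies called by limma was recomputed with pseudocounts of 0.1 and 5, without the filter, with at least 10 estimated reads, with median-of-ratios scaling, without smad4.1.S, with separate libraries, with a trend and with voom. In the stump, where 0 were called, silk gave 5 with at least 10 reads, 20 with separate libraries, 15 with a replicate block on separate libraries and 49 with voom. Progesterone gave 5 with pseudocount 5, 17 with at least 10 reads, 21 with separate libraries, 5 with the replicate block, 1 with a trend and 36 with voom. Separate libraries count near-identical ones as independent. With voom the median stump difference over all genes was itself 1.26 for silk and 1.14 for progesterone. In the brain voom gave 1 for progesterone against silk. From stump to blastema (37) median-of-ratios scaling gave 16, and from stump to brain (36) separate libraries and voom gave 55 each. With 1 sample left out the counts were 0 in the 9 treatment comparisons, 2 to 34 from stump to blastema, 15 to 40 from stump to brain and 16 to 41 from blastema to brain (43). Within a tissue, deviations of same-numbered libraries of different treatments correlated at −0.076 to 0.154, so the block is given only here. Whether same-numbered libraries of different tissues go together was not tested. Of 687 recomputed member differences, 630 moved by less than 1 SD and 57 by more, under pseudocounts, median-of-ratios scaling, voom or a progesterone blastema sample left out. In the stump device comparisons all member differences kept their sign, from 1.4035 (gata1.L, silk, pseudocount 5) to 3.63 (gata1.S, progesterone, without stump no-device library 2). A lone sample left in a group was assumed to vary like the others. Estimated depth limits gata1.L most.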
